A study of Mus musculus with 220 samples.

Results

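The nuclear genes of the mitochondrial respiratory chain were examined in the livers of female F1 mice from 96 maternal strains. A gene was included when its single symbol in the platform annotation began with Nduf, Sdh or Uqcr, or was that of a Cox4 to Cox8 subunit. This rule found 74 genes among the 17097 genes with a probe set of their own, and each gene was read from its brightest probe set. They comprised 40 genes of complex I or its assembly, 8 of complex II, 7 of complex III and 19 of complex IV. Genes of these families without a single-symbol probe set were not analysed here.

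All 220 mice were sired by C57BL/6J males with transgenes for human APOE-Leiden and CETP, and F1 mice with both transgenes were selected. Controls without the transgenes are therefore not among them, and every mouse has one chromosome set from C57BL/6J, so a difference between strains is one between their contributions to an F1. The maternal strain was the group. Livers were taken at 24 weeks of age, after 8 weeks on chow and then 16 weeks of Western diet. There were 11 AXB strains (25 mice) and 10 BXA strains (22 mice), both recombinant inbred sets from A/J and C57BL/6J, 34 BXD strains (83 mice) from C57BL/6J and DBA/2J, of which 1 (3 mice) is labelled BXD24/TyJ-Cep290<rd16>/J for a mutant allele of Cep290, 8 CXB strains, 4 BXH strains and 29 classical inbred strains, which included A/J, DBA/2J and C57BL/6J itself. A strain was represented by 1 mouse in 9 cases, 2 in 51, 3 in 35 and 4 in 1. The labels give no litter, cage or collection day, so anything that mice of one strain shared counts as strain. The p-values measure the spread between these mice, except for AXB against BXA. That comparison used strain means, so its p-values and intervals measure the spread between strains. Expression is given as the log2 signal of an Affymetrix array, on which a difference of 1 is a factor of 2. Levels of different genes are not compared, because each probe set has its own response.

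The respiratory chain passes electrons from NADH and succinate to oxygen and pumps protons across the inner mitochondrial membrane. Complex I oxidises NADH, complex II oxidises succinate and also belongs to the tricarboxylic acid (TCA) cycle, complex III passes electrons from ubiquinol to cytochrome c, and complex IV reduces oxygen. Complexes I, III and IV are built from subunits of both genomes, whereas complex II is wholly nuclear. Hepatocytes are rich in mitochondria and use the chain to oxidise fatty acids and other fuels. Nuclear genes of the chain are known targets of the transcription factors NRF1, GABP (also called NRF2) and YY1.

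RefSeq promoter windows of mouse build GRCm38.p6, running from 250 bases before to 50 bases after the annotated start, were matched to 59 of the 74 genes. Letters of 3 motifs were searched on both strands: CGCATGCG for NRF1 (its own reverse complement), CCGGAAG for GABP and AAGATGGCG for YY1. The NRF1 letters were found in 7 of the 59 windows (11.9%) and in 1.87% of all 32851 windows in the table. The GABP letters were found in 14 (23.7%, against 8.86% of all windows) and the YY1 letters in 6 (10.2%, against 1.4%). In all, 24 windows held at least 1 of the 3 motifs (40.7%, against 11.5% of all windows). All 24 belonged to the 55 windows of broadly expressed genes. None of the 4 windows of tissue isoforms of complex IV held one, but 4 windows are too few for a comparison. A match describes the letters only. The 250 bases before the start are shown for 4 genes. The windows of Cox6a1 and Uqcr11 hold both the NRF1 and the GABP letters. Ndufa12 and Cox6b2 are the pair with the highest shares of variance between strains, and their windows hold none of the 3 motifs. Capitals mark motif matches, and the NRF1 match of Uqcr11 is not among the bases shown because it does not lie wholly before the start.
Cox6a1 (chr5:115348959-115349208, minus strand): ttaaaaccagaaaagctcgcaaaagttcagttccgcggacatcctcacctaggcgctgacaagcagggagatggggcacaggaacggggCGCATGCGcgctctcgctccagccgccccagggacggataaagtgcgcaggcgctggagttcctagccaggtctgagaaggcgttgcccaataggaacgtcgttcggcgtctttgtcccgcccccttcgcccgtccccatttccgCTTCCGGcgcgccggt
Uqcr11 (chr10:80406822-80407071, minus strand): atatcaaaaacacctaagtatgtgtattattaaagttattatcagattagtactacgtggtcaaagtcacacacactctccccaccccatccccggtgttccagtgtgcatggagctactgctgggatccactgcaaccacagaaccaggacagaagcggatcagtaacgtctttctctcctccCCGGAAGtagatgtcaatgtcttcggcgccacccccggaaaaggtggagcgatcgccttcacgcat
Ndufa12 (chr10:94198785-94199034, plus strand): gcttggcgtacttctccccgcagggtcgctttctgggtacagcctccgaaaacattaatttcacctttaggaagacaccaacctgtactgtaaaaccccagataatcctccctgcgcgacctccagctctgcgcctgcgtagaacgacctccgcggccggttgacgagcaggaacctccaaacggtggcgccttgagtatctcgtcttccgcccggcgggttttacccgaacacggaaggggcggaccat
Cox6b2 (chr7:4753095-4753344, minus strand): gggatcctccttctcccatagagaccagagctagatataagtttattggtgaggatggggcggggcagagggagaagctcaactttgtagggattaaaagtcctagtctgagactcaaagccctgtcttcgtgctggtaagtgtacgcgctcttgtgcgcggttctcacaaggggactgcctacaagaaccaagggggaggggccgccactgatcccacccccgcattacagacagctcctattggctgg

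Alb, Ttr, Apoa1 and the other hepatocyte markers were high in every mouse (lowest Alb value 13.28). The log2 signal at the 3′ end of the Gapdh and Actb control transcripts exceeded that at the 5′ end by 0.22 to 1.26 (median 0.60), and strain means of this measure of RNA integrity had r = 0.04 with the mean level of the 74 genes over 96 strains. The highest correlation between any pair of arrays was 0.997, and no array was a copy of another.

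Most respiratory chain genes differed between maternal strains, by small amounts. Strains with at least 2 mice (87 strains, 211 mice) were compared by the moderated F-test of limma, and 68 of the 74 genes passed an adjusted p of 0.05 (91.9%), against 59.2% of all 17097 genes. Well-expressed genes pass more often, and among genes with a mean log2 signal of 8 or more the figures were 55 of 57 members (96.5%) against 93.7% of all such genes, so the members' count was near the background for their signal. The share of variance that lay between strains, from a one-way random-effects analysis, had a median of 0.45 over the 74 genes, 0.25 over all genes and 0.49 over genes with a mean of 8 or more. Strain means of a typical member had a standard deviation (SD) of 0.12, against an SD of 0.10 between mice of one strain. The range of the 96 strain means had a median of 0.60, from 0.26 for Ndufa4 to 2.85 for Cox6b2. The 6 genes that did not pass were Ndufc1, Uqcrc2 and the tissue isoforms Cox4i2, Cox6a2, Cox7b2 and Ndufa4l2.

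**Figure D1:**
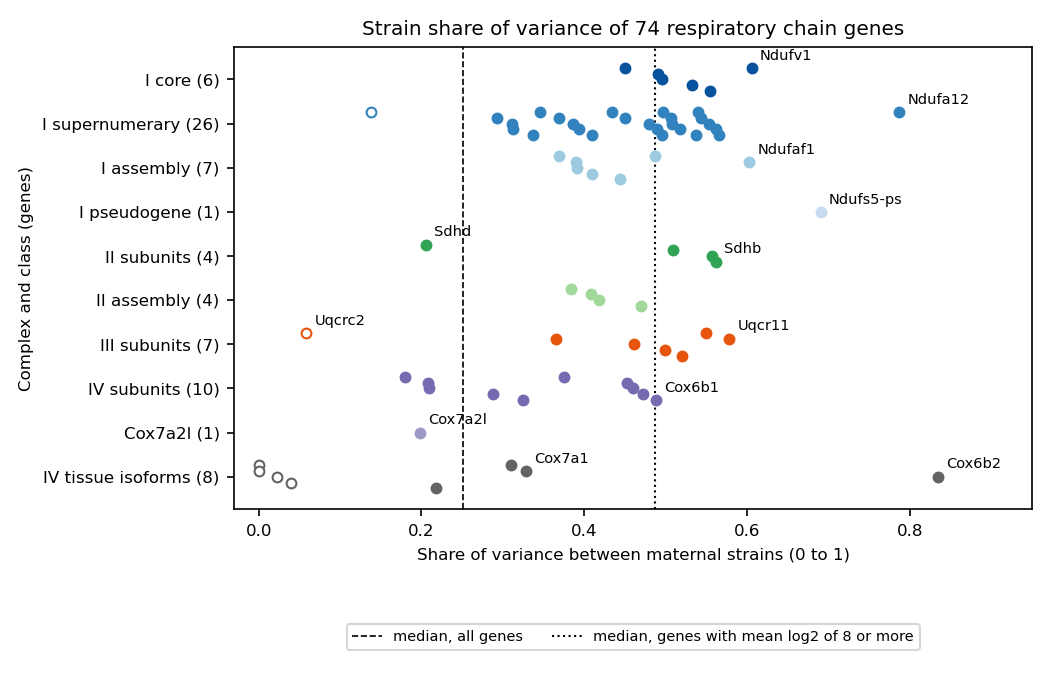
Share of variance between maternal strains (x axis, 0 to 1) for each of the 74 genes, grouped by complex and class (y axis). Filled points passed the F-test at an adjusted p of 0.05 and open points did not, and the vertical lines mark medians over all genes (0.25) and over genes with a mean log2 signal of 8 or more (0.49). Cox6b2 and Ndufa12 lie far to the right, and the subunits of complex IV lie left of most subunits of complexes I to III.

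In the values that follow, the lowest and highest strain of a gene are those among strains with 2 or more mice. The catalytic core of complex I varied with strain in all 6 of its measured genes, with shares from 0.45 to 0.61. Ndufv1, the flavoprotein that accepts electrons from NADH, ranged from 10.01 ± 0.11 (SD, n = 3) in SJL/J to 10.69 ± 0.05 (n = 2) in NOD/ShiLtJ, with a median of 10.40 over the 96 strains (share 0.61, adjusted p = 2.0e-13). Ndufs1, the largest iron-sulfur subunit, ranged from 9.65 ± 0.14 (n = 2) in C57BLKS/J to 10.25 ± 0.01 (n = 2) in SWR/J (share 0.49, adjusted p = 4.8e-09). Ndufs3, Ndufs7, Ndufs8 and Ndufv2 carry or hold the chain of iron-sulfur clusters, and their adjusted p-values ran from 2.7e-10 to 6.8e-07. Ndufs3 was lowest in BXD31/TyJ (10.29) and highest in NOD/ShiLtJ (10.78), and its share was 0.55.

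Of the 26 supernumerary subunits of complex I, which surround the core, 25 passed. Ndufb9 ranged from 11.24 ± 0.03 (n = 3) in BXD40/TyJ to 11.83 ± 0.07 (n = 2) in NOD/ShiLtJ, with a share of 0.57. Ndufb10, another membrane-arm subunit, ranged from 9.49 ± 0.19 (n = 3) in SEA/GnJ to 10.14 ± 0.03 (n = 2) in BXD75/RwwJ, with a share of 0.56. Ndufab1 is the mitochondrial acyl carrier protein and serves fatty acid synthesis as well as complex I. It ranged from 10.54 ± 0.06 (n = 3) in CXB7/ByJ to 11.32 ± 0.11 (n = 2) in SWR/J, with a share of 0.55. The 7 assembly factors, proteins that build complex I but are not part of it, all passed. Their strain means were more widely spread than those of the subunits (median SD 0.17, against 0.11 for the supernumerary subunits). The assembly factors also had lower signals (means of 5.74 to 9.08, against 9.79 to 11.61) and a lower median share (0.41, against 0.48). Ndufaf1 had the highest share among them (0.60) and ranged from 7.55 ± 0.29 (n = 3) in BXA14/PgnJ to 8.27 ± 0.06 (n = 2) in SM/J. Ndufaf6 ranged from 6.49 ± 0.07 (n = 2) in CBA/J to 7.68 ± 0.19 (n = 2) in SWR/J, and Ndufaf5 from 5.17 ± 0.53 (n = 3) in LG/J to 6.25 ± 0.09 (n = 2) in BXD61/RwwJ. Ndufaf2 had a low value that stood out in CXB3/ByJ (6.74 ± 0.003, n = 2), where its median over strains was 7.51.

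All 4 subunits of complex II passed. Sdha, the flavoprotein that oxidises succinate, ranged from 10.62 ± 0.12 (n = 3) in AXB15/PgnJ to 11.20 ± 0.03 (n = 2) in SWR/J, with a share of 0.56. Sdhb, its iron-sulfur partner, ranged from 11.03 ± 0.08 (n = 3) in LG/J to 11.63 ± 0.08 (n = 2) in NOD/ShiLtJ, also with a share of 0.56. Of the membrane anchors, Sdhc had a share of 0.51 and Sdhd one of 0.21 (adjusted p = 0.0099), with a mouse-to-mouse SD of 0.23 for Sdhd against 0.11 for Sdhc. The 4 assembly factors Sdhaf1 to Sdhaf4 passed with shares between 0.38 and 0.47.

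In complex III, 6 of 7 subunits passed. Uqcr11, a small subunit, had the highest share (0.58) and ranged from 10.83 ± 0.07 (n = 3) in BXD40/TyJ to 11.46 ± 0.06 (n = 3) in BXD55/RwwJ. Uqcrfs1, the Rieske iron-sulfur protein, had a share of 0.52 and was lowest in LG/J (10.55 ± 0.11, n = 3). Uqcrb and Uqcrc1 passed with shares of 0.37 and 0.50. Uqcrc2, one of the core proteins, did not pass with the probe set used (share 0.06, adjusted p = 0.36), but its other probe set, with a lower signal, gave a share of 0.52 (adjusted p = 3.5e-09).

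The broadly expressed subunits of complex IV had the smallest spread over strains of the groups. All 10 passed the test, yet the SD of their strain means had a median of 0.07. Their shares had a median of 0.35, above that of the tissue isoforms (0.13). Cox6a1, the subunit with one of the promoters shown, ranged from 12.51 ± 0.08 (n = 2) in BXH8/TyJ to 12.76 ± 0.05 (n = 3) in BTBR T<+> tf/J. Cox4i1, a subunit of the regulatory kind, lay between 11.72 ± 0.04 (n = 3) in CXB7/ByJ and 12.02 ± 0.06 (n = 2) in BXA8/PgnJ. Cox6b1 had the highest share (0.49), with NOD/ShiLtJ at 11.87 and I/LnJ at 11.58. Cox6c had a share of 0.46, Cox5b 0.47, Cox7a2 0.29, Cox7c 0.21, Cox8a 0.21 and Cox5a 0.18. Of the other probe sets of Cox5a, 1 gave a share of 0.55 (adjusted p = 2.0e-09) and 1 a share of 0.05 (adjusted p = 0.41). Ndufa4, first named for complex I and now placed in complex IV, had a share of 0.32 and an SD of 0.06 over strains. Cox7a2l, which helps complexes III and IV to associate, barely passed the F-test with the probe set used (share 0.20, adjusted p = 0.039). With that probe set it was lowest in NOD/ShiLtJ (9.44 ± 0.12, n = 2) and highest in BXD31/TyJ (9.81 ± 0.11, n = 2). Its other probe sets gave shares of 0.38 (adjusted p = 2.6e-05) and 0.31 (adjusted p = 7.7e-04) by the same test.

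The 8 tissue isoforms had low signals, with mean log2 values from 2.54 for Cox7b2 to 3.95 for Cox7a1 and slightly more for Cox6a2. Cox6a2, Cox7a1 and Cox8b are the heart and muscle isoforms, Cox6b2, Cox7b2 and Cox8c are known from testis, Cox4i2 is known from lung and hypoxia, and Ndufa4l2 is a hypoxia-induced relative of Ndufa4. Cox7a1 ranged from 3.31 ± 0.23 (n = 3) in AXB6/PgnJ to 4.75 ± 0.37 (n = 2) in BXD75/RwwJ (share 0.33), and Cox8b from 2.59 ± 0.06 (n = 2) in BXD38/TyJ to 3.66 ± 0.19 (n = 2) in CE/J (share 0.22). The level of 10 striated muscle markers, a mean over the list, ran from 2.87 to 3.82 over strains and was below its median of 3.06 in both CE/J and BXD75/RwwJ. It was highest in BXD14/TyJ (3.82), where Cox8b was 3.28. Strain means of Cox8b had r = 0.37 with this level and 0.27 with that of 4 adipocyte markers. The adipocyte level ran from 2.79 to 3.25, with a median of 2.96, and its highest strain, AXB8/PgnJ, had Cox7a1 at 4.64 ± 0.35 (n = 2). Over the 96 strains Cox7a1 had r = 0.22 with the adipocyte level and -0.003 with the muscle level. The part of these cells in the isoform values was not tested. Only 1 of the 10 muscle markers passed the F-test. Cox4i2, Cox6a2, Cox7b2 and Ndufa4l2 had shares of at most 0.04, and no strain differences in these genes were detectable with these arrays.

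Cox6b2 was the exception among the isoforms and had the highest share of all members (0.83, adjusted p = 5.4e-35). In 6 classical strains it was above the rest: MA/MyJ (5.73 ± 0.16, n = 2), BTBR T<+> tf/J (5.30 ± 0.48, n = 3), LG/J (5.26 ± 0.25, n = 3), LP/J (5.21 ± 0.09, n = 2), 129X1/SvJ (5.05 ± 0.25, n = 2) and BALB/cJ (4.82 ± 0.47, n = 3). The other 90 strains lay between 2.88 and 3.66, with a median of 3.23. The lowest mouse of the 6 strains was a BALB/cJ mouse at 4.33, above all 90 of those strain means. Among the other strains 1 BUB/BnJ mouse reached 4.13, with its strain mates at 2.96 and 3.26. BALB/cJ is a parent of the CXB strains, but the highest CXB strain, CXB13/HiAJ, reached 3.66 ± 0.13 (n = 2). C57BL/6J mice were at 3.34 and 3.03. Cox6b2 has 1 probe set in the annotation, so a second measurement within the array could not be made.

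Ndufa12, a supernumerary subunit of complex I, had the second highest share (0.79, adjusted p = 2.8e-27 by the F-test). Its strains were split into a lower and an upper set at the widest gap away from the ends of their order. Any ordered list has such a gap, which was 0.17 in BXD and 0.15 in AXB and BXA. In the BXD panel 11 strains lay between 10.38 and 10.60 and 23 between 10.76 and 11.08. In the AXB and BXA strains 5 lay between 10.24 and 10.54 and 16 between 10.69 and 11.07. The C57BL/6J mean was 10.99 ± 0.01 (n = 2), within the range of both upper sets. The A/J mean was 10.36 ± 0.17 (n = 3), within the range of the lower set of AXB and BXA strains. The DBA/2J mean was 10.63 ± 0.05 (n = 3), between the lower and the upper BXD set and in neither. A second probe set of Ndufa12 did not follow this pattern. Its strain means had r = -0.44 with those of the first over 96 strains (-0.47 within BXD and -0.22 within AXB and BXA), and in the BXD strains its median was 9.87 in the lower set and 9.62 in the upper set. The strain differences of Ndufa12 thus depend on the probe set, and which of them reflects transcript level was not tested.

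**Figure D2:**
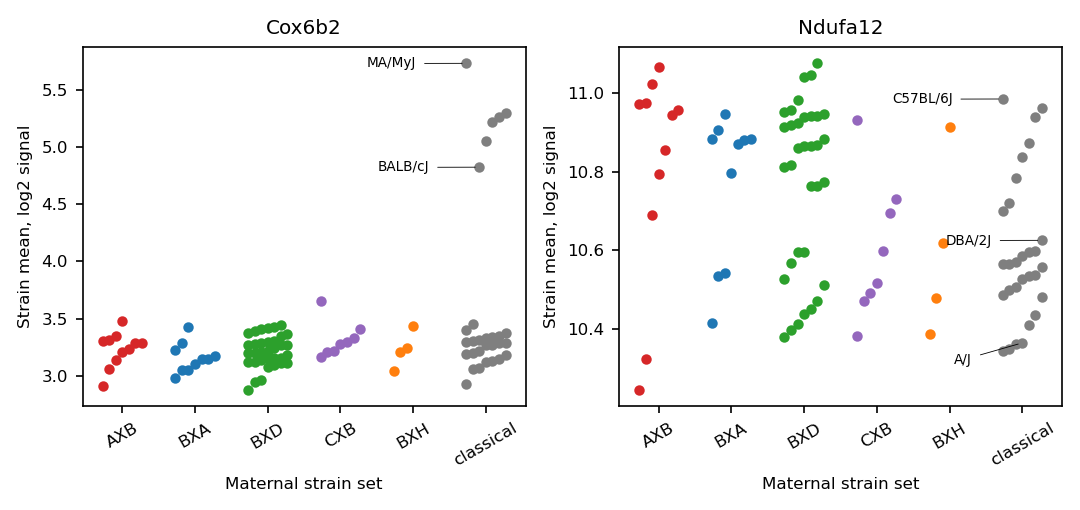
Strain means of Cox6b2 (left) and Ndufa12 (right) as log2 signal (y axis), by set of maternal strains (x axis), with 1 point per strain. For Cox6b2, 6 classical strains lie between 4.82 and 5.73 and all other strains at or below 3.66; for Ndufa12, both the BXD set and the AXB and BXA sets have a gap between lower and upper strains.

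The probe set annotated to Ndufs5-ps, a pseudogene of the complex I subunit Ndufs5, had a share of 0.69 (adjusted p = 1.9e-18). Its median over strains was 10.60, and it was lowest in BUB/BnJ (10.004 ± 0.05, n = 3), I/LnJ (10.15 ± 0.08, n = 2), C57BLKS/J (10.15 ± 0.07, n = 2), FVB/NJ (10.20 ± 0.07, n = 3) and C58/J (10.20 ± 0.04, n = 2). These 5 are classical strains. Short probes may not separate a pseudogene from its parent gene, so this signal cannot be told apart from that of Ndufs5. Its second probe set had r = 0.60 with the first over strains.

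Other members also had more than 1 probe set. Of 39 additional probe sets with a mean of 6 or more, from 30 genes, 28 had r over 0.5 with the probe set used, 7 had r between 0 and 0.5 and 4 had r under 0. Uqcr10, a small subunit of complex III, was a case of the last kind. The probe set used had a share of 0.46 and strain means from 10.32 to 10.96, whereas a dimmer one ran from 6.98 to 8.63 with a share of 0.90 and r = -0.27. For Ndufc1 the probe set used did not pass (adjusted p = 0.11), and the other one did (adjusted p = 0.0011).

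The members tended to move together over strains. Among the 65 genes with a mean of 6 or more, the 2080 pairwise correlations of strain means had a median of 0.37 and quartiles of 0.18 and 0.54, and 89.7% were above 0. The median was 0.40 within complex I, 0.32 within complex II, 0.45 within complex III, 0.30 within complex IV and 0.35 between complexes. All pairs share the same mice and arrays, and the values are a description. No such values are given for pairs of other genes, so the covariation is not shown to be particular to the members. Ndufa9 (r = 0.88 with the mean of the other 64), Ndufs3 (0.88) and Ndufb8 (0.87) followed the rest most closely. Cox4i1 (0.10), Sdhaf1 (0.10) and Sdhaf2 (0.04) hardly did, and Cox7a2l ran the other way (-0.37).

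A strain's position was summarised as the median over the 74 genes of its departure from the mean of the 96 strains. It ran from -0.13 to 0.16, with an SD of 0.07. The highest strains were NOD/ShiLtJ (0.16, its mice at 0.14 and 0.18), AXB2/PgnJ (0.15, mice from 0.08 to 0.17), BXD55/RwwJ (0.15, mice from 0.12 to 0.16) and SWR/J (0.12). The lowest were LG/J (-0.13, mice from -0.16 to -0.08), BXD31/TyJ (-0.11, mice at -0.12 and -0.11), BXD40/TyJ (-0.10) and C3H/HeJ (-0.10). Of the 74 genes, 63 were above their mean in NOD/ShiLtJ and 14 in LG/J. Among strains with 2 or more mice, NOD/ShiLtJ was the highest strain for 16 genes and LG/J the lowest for 10. C57BL/6J stood at 0.05, DBA/2J at 0.09 and A/J at -0.07. These departures are small beside differences of single genes such as Cox6b2, and some strains spread widely, as AXB8/PgnJ with mice at -0.05 and 0.22.

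**Figure D3:**
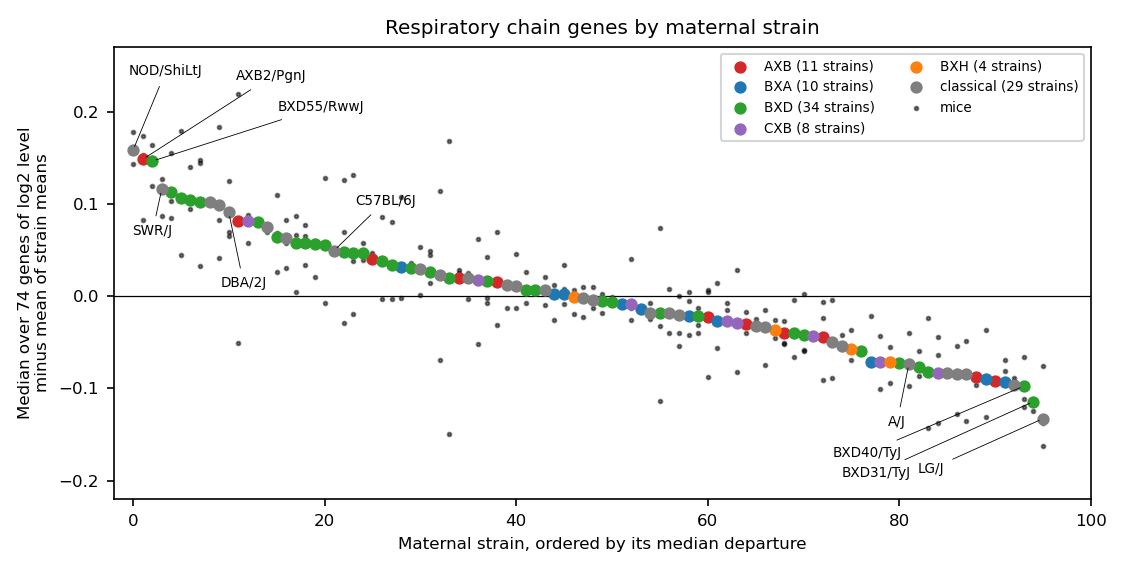
Median over the 74 genes of the departure from the mean of strain means (y axis, log2), for the 96 maternal strains in order (x axis). Large points are strains, coloured by set, and small points are their mice. NOD/ShiLtJ (0.16) is highest and LG/J (-0.13) lowest.

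Markers of other liver cells moved with the level of these genes over strains. All 5 cholangiocyte markers (Krt19, Krt7, Epcam, Sox9 and Cldn7) had negative correlations with the mean member level, from -0.76 to -0.67. The mean level of that list ran from 3.52 to 6.78 over strains and was 3.66 in NOD/ShiLtJ and 5.12 in LG/J. Of 7 stellate cell markers 6 had negative correlations (down to -0.83 for Col1a1), Lrat being the exception (0.45), and the list stood at 6.94 in NOD/ShiLtJ and 7.57 in LG/J. Of 9 macrophage and Kupffer cell markers 6 were negative (Cd68 -0.69, Trem2 -0.68), while Clec4f was at 0.39. All 6 endothelial markers were positive (0.19 to 0.60), as were 6 of 7 hepatocyte markers, up to 0.67 for Ttr. Striated muscle, cardiac muscle and adipocyte lists were low in all strains, with levels of at most 3.82, 3.07 and 3.25. In bulk tissue fewer cells of a type and less RNA per cell cannot be told apart. The part of cell composition in the strain differences of the respiratory chain genes was not tested.

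Within the BXD panel, 43 of the 74 genes differed between the 31 strains with 2 or more mice (58.1%, against 42.2% of all genes). Among genes with a mean log2 signal of 8 or more the count was 36 of 57 members (63.2%), below the 73.4% of all such genes. Only 1 of the 10 broadly expressed complex IV subunits passed there, beside all 6 core subunits of complex I and all 7 of its assembly factors; the difference between these groups was not tested. After Ndufa12 (share 0.84), the largest shares were those of Ndufb10 (0.62), the core subunit Ndufs7 (0.60), the complex I subunits Ndufa6 (0.58) and Ndufb9 (0.57) and the membrane anchor Sdhc (0.57). Ndufs7 ran from 9.97 to 10.53 over the 34 strains, with a median of 10.21, and Ndufa6 from 10.39 to 10.89, with a median of 10.58. Within the AXB and BXA strains as 1 panel, 23 genes differed between the 18 strains with 2 or more mice (31.1%, against 29.0% of all genes), a share near the background. At a mean of 8 or more it was 16 of 57 members (28.1%), below the 47.9% of all such genes. Ndufa12 (0.76), Ndufs8 (0.65), Sdha (0.64), Ndufb10 (0.64), Uqcrq (0.62) and Ndufs7 (0.61) had the largest shares there. Sdha ran from 10.62 to 11.20 over the 21 strains, with a median of 10.94. That count was 14 with the RNA integrity measure as a covariate.

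By the naming convention of recombinant inbred strains, AXB strains descend from A/J females and BXA strains from C57BL/6J females, so the sets are expected to carry mitochondrial genomes of different origin and pass them to these F1 mice. Mitochondrial genotypes were not analysed here. The comparison of 11 AXB with 10 BXA strain means asks whether nuclear respiratory chain genes differ with that origin. None of the 74 genes passed (0% of all 17097 genes passed, by limma with adjustment over all probe sets, and all members had an adjusted p of 0.998 or more), and 2 genes had an unadjusted p under 0.05 (2.70%, against 5.09% of all genes). The median difference of AXB minus BXA was 0.02 over the members, with quartiles of -0.004 and 0.05, and 0.004 over all genes. The 95% interval of the difference lay within 0.2 on either side of 0 for 62 of the 74 genes and within 0.3 for 72.

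The lowest p-values belonged to Ndufaf8, Uqcr10, Cox4i2, Cox8a and Cox5b, of which none passed. Ndufaf8, a complex I assembly factor, ran from 8.78 to 9.29 in the AXB strains (median 9.08) and from 8.80 to 9.10 in the BXA strains (median 8.97). Its difference was 0.11 (95% interval 0.01 to 0.21, unadjusted p = 0.037 by limma). Uqcr10 ran from 10.56 to 10.92 in AXB (median 10.73) and from 10.38 to 10.73 in BXA (median 10.65), a difference of 0.10 (0.003 to 0.19, unadjusted p = 0.043 by limma). For both genes the sets overlap over most of their range. The sign of the Uqcr10 difference turned with its other probe sets (-0.05 and -0.13). Cox4i2 differed by -0.06, Cox8a by 0.06 and Cox5b by 0.06, each with an interval that included 0. The gene with the largest difference, Ndufa5, differed by 0.12 (-0.08 to 0.32).

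In total 53 of the 74 genes had a positive difference (71.6%, against 52.6% of all genes), and 42 of 57 with a mean of 8 or more (73.7%, against 53.5% of such genes). In complex I these were 4 of 6 core subunits, 21 of 26 supernumerary subunits, 4 of 7 assembly factors and Ndufs5-ps. In complex II they were 4 of 4 subunits and 2 of 4 assembly factors, in complex III 5 of 7 subunits, and in complex IV 6 of 10 subunits and 6 of 8 tissue isoforms, but not Cox7a2l. The members are correlated over strains, so they are not 74 separate observations. The median departure was 0.15 in AXB2/PgnJ and 0.08 in AXB8/PgnJ, and the highest BXA strain reached 0.03. The AXB strains ran from -0.09 to 0.15 (median -0.02) and the BXA strains from -0.09 to 0.03 (median -0.02). Without AXB2/PgnJ the median difference was 0.01, without AXB8/PgnJ also 0.01, and without AXB5/PgnJ, a strain of 1 mouse, it was 0.04. The RNA integrity measure was 0.58 ± 0.19 (SD, n = 11) in AXB and 0.57 ± 0.15 (n = 10) in BXA strains. The mean level of macrophage and Kupffer cell markers was 7.85 ± 0.23 in AXB (range 7.44 to 8.11) and 8.06 ± 0.24 in BXA (range 7.74 to 8.43), and 8 of its 9 markers were lower in AXB. Cholangiocyte markers were lower in AXB for 5 of 5, with list levels of 5.18 ± 0.83 and 5.37 ± 0.78. The part of this in the differences was not tested.

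**Figure D4:**
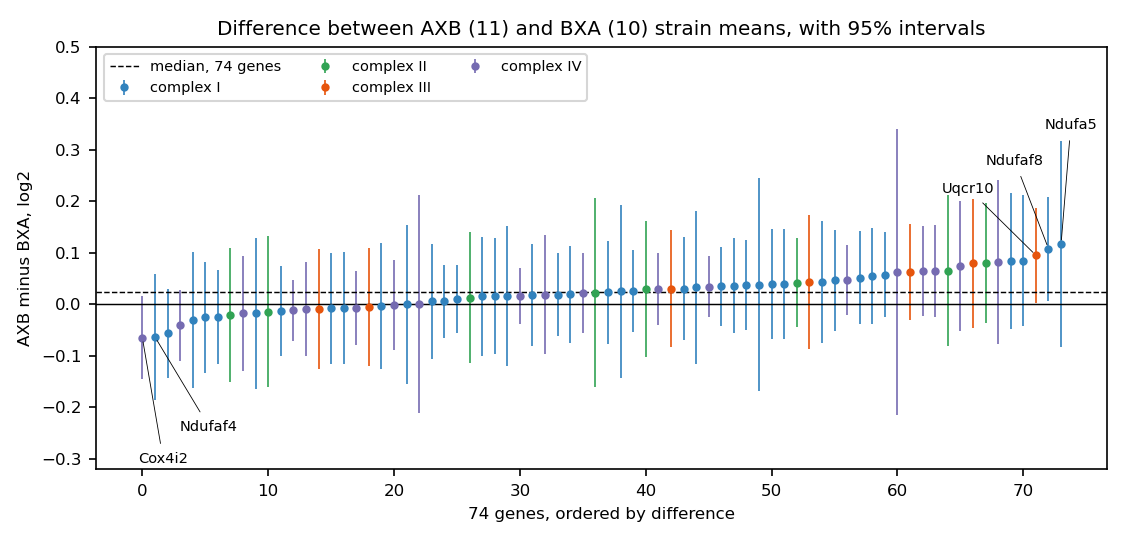
Difference between AXB and BXA strain means (y axis, log2) for the 74 genes in order of the difference (x axis), coloured by complex; bars are 95% intervals from limma over 11 and 10 strains. All but the intervals of Uqcr10 and Ndufaf8 include 0, and the dashed line marks the median of 0.02.

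The inbred progenitors were compared to see which members carry strain differences between A/J, DBA/2J and C57BL/6J mothers. With A/J mothers, 8 of the 74 genes were lower than with C57BL/6J mothers (10.8%, against 4.61% of all genes lower), and 0 were higher (against 5.91%). At an unadjusted p under 0.05 there were 23 genes by limma (31.1%, against 23.2% of all genes). Of the 8, 5 are supernumerary subunits of complex I, and the others are its assembly factor Ndufaf6, the complex III subunit Uqcrq and the complex IV subunit Cox5b. Over all 74 genes 61 were below C57BL/6J at any size (82.4%, against 49.5% of all genes), with a median difference of -0.12, against 0.002 over all genes. The members are correlated over strains and were read in the same few mice, so these are not 74 separate observations. Among genes with a mean log2 signal of 8 or more the median difference was -0.11 for members and 0.002 for all such genes. The counts with A/J or DBA/2J mothers are not set against genes of like signal. With DBA/2J mothers Ndufa12 alone was lower (1.35%, against 0.983% of all genes lower), and no member was higher (against 1.12% of all genes). The median difference of the members was 0.04, and at an unadjusted p under 0.05 there were 6 genes by limma (8.11%, against 12.1% of all genes).

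Ndufa12 was at 10.98 and 10.995 in the C57BL/6J mice, at 10.28, 10.55 and 10.25 in the A/J mice and at 10.68, 10.60 and 10.60 in the DBA/2J mice. The 3 sets of mice did not overlap, in a gene chosen because both contrasts of these mice called it. The difference from C57BL/6J was -0.62 ± 0.10 (SE) for A/J (adjusted p = 3.1e-06) and -0.36 ± 0.10 for DBA/2J (adjusted p = 0.037). With the second probe set these were -0.03 (adjusted p = 0.92) and 0.12 (adjusted p = 0.76).

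Ndufa5, a subunit of the peripheral arm of complex I, was at 10.20 and 10.14 in the C57BL/6J mice and at 9.57, 9.86 and 9.65 in the A/J mice, a difference of -0.48 (adjusted p = 0.021). Ndufaf6 was at 7.196 and 7.197 in the C57BL/6J mice and at 6.60, 6.71 and 6.51 in the A/J mice, a difference of -0.59 (adjusted p = 0.020). Ndufb8, a subunit often used to track assembled complex I, was at 11.10 and 11.11 against 10.84, 10.85 and 10.81, a difference of -0.28 (adjusted p = 0.038). In each of these genes all A/J mice lay below both C57BL/6J mice. The genes were chosen by the contrast of these same mice, so this is no further support. The remaining differences were -0.32 for Ndufb10, -0.32 for Ndufa6, -0.26 for Cox5b and -0.25 for Uqcrq, with adjusted p-values from 0.012 to 0.043. Other probe sets, examined after the data were seen, gave further calls by limma in members not called above, all lower with A/J mothers. Those of Uqcr10 differed by -1.30 (adjusted p = 1.5e-10) and -0.65 (adjusted p = 4.2e-04), where the probe set used gave 0.02. Sdha differed by -0.27 (adjusted p = 0.016) and Cox6a1 by -0.26 (adjusted p = 0.023). At low signal, probe sets of Ndufs4 (-0.88, adjusted p = 9.3e-04) and Sdha (-0.68, adjusted p = 0.010) also passed. Other probe sets did not keep every call. The second probe set of Ndufa5 gave -0.32 (adjusted p = 0.076) and that of Cox5b -0.23 (adjusted p = 0.061). With all probe sets of a gene averaged, Ndufb8 differed by -0.18 (adjusted p = 0.17) and Uqcrq by -0.07 (adjusted p = 0.61). The other probe sets in these averages were dim, with means of 5.70 for Ndufb8 and 3.37 or less for Uqcrq. The probe sets used had means of 10.94 and 11.64, so the averages are not a second measurement of like signal.

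The count of 8 rested on few mice. It was 1 without the first C57BL/6J mouse, 2 without the second, 3 without the first A/J mouse, 4 without the third and 7 without the second, and Ndufa12 passed each time. Of 9 macrophage and Kupffer cell markers 4 were higher and of 6 endothelial markers 3 were lower with A/J mothers, and the mean levels of these lists were 8.08 and 6.38 in A/J against 7.77 and 6.96 in C57BL/6J. No hepatocyte or cholangiocyte marker passed there. The hepatocyte list stood at 12.23 in A/J against 12.43 in C57BL/6J, with a median difference of -0.12 over its 7 markers, and the cholangiocyte list at 4.91 against 4.52. Their part in the differences was not tested. Both progenitor contrasts use the same C57BL/6J mice.

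**Figure D5:**
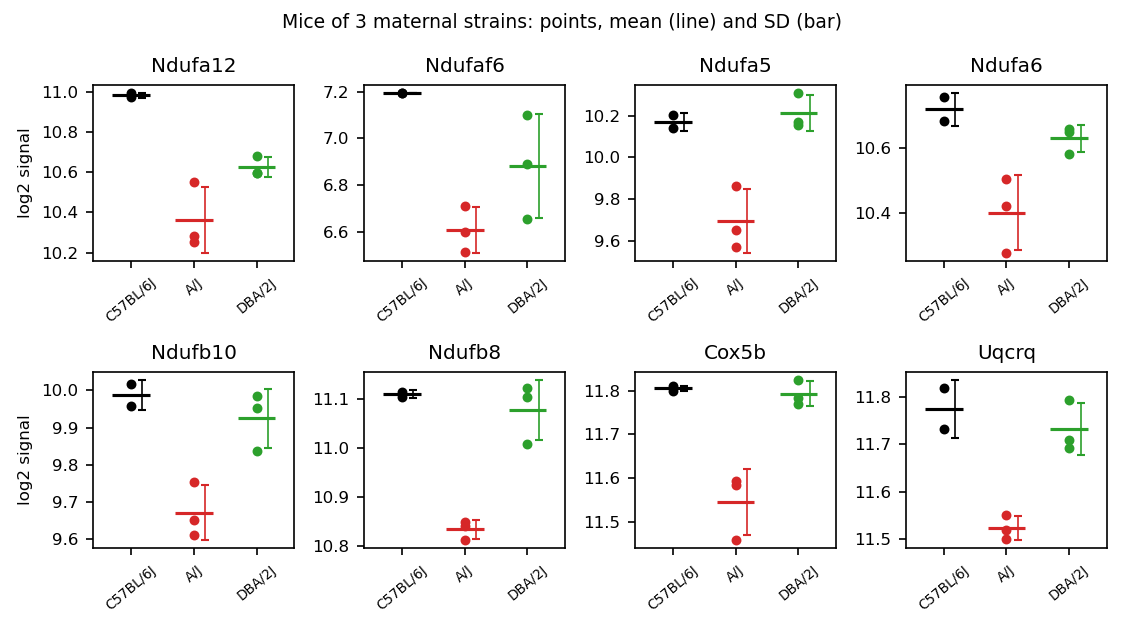
Log2 signal (y axis) of the 8 genes lower with A/J mothers, for mice with C57BL/6J (2), A/J (3) and DBA/2J (3) mothers (x axis). Points are mice, lines are means and bars are SD; the y axes do not start at 0. In all 8 panels the A/J mice lie below the C57BL/6J mice, but the genes were chosen by this contrast in these mice.

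Neighbouring mitochondrial gene groups gave a similar picture over strains. All 17 measured genes listed for ATP synthase, which uses the proton gradient, passed the F-test. That list holds the regulator Atpif1 as well as subunits. Both electron carrier genes passed too: Cycs, and Cyc1, a heme subunit of complex III that the symbol rule leaves out. So did all 11 TCA cycle genes. Of the assembly factors of complexes III and IV 18 of 22 passed, of other complex I assembly factors 6 of 7, of biogenesis regulators 14 of 15, of mitochondrial ribosomal proteins 52 of 61 and of outer membrane and import genes 14 of 16. These shares ran from 81.8% to 100%, beside 59.2% of all genes and 93.7% of those with a mean of 8 or more. The largest shares in these groups were 0.83 for Cox18, an insertase for complex IV, 0.74 for Mrps12, a ribosomal protein, 0.69 for Sirt3, the mitochondrial deacetylase, and 0.68 for Ppargc1b, a coactivator of mitochondrial genes. No gene of these lists passed between AXB and BXA by limma, where the mitochondrial ribosome had 2 genes with an unadjusted p under 0.05 and no other list more than 1. With A/J mothers 2 ATP synthase genes were lower than with C57BL/6J mothers and 0 higher, and 4 mitochondrial ribosomal genes were lower and 2 higher. No TCA cycle gene passed there in either direction, with a median difference of -0.08. The mean level of the ATP synthase list followed that of the respiratory chain genes over the 96 strains (r = 0.87). Within that list Atpif1 (-0.58) and Atp5s (-0.37) ran the other way. The TCA cycle genes also followed (0.76) and less so the ribosomal proteins (0.65), whereas outer membrane and import genes did not (-0.18). The outer membrane and import list also holds carriers of the inner membrane. Of these, Slc25a4, the ADP/ATP carrier of muscle and heart, had r = -0.73, Slc25a3 had -0.04 and Slc25a5 had 0.32.

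Among genes other than the 74, those whose strain means were most like the mean member level over the 96 strains were Sucla2 (r = 0.86), Pcca (0.85), Mfsd4b1 (0.85), Ddt (0.85), Rmnd5a (0.85), Dpyd (0.85), Mtfp1 (0.85) and Dera (0.85). Sucla2, also one of the TCA cycle genes above, is a subunit of succinyl-CoA synthetase and Pcca one of propionyl-CoA carboxylase, both mitochondrial enzymes. The most negative were Relb (-0.86), Itm2c (-0.86), Rab31 (-0.85), Tubb5 (-0.85), Cd14 (-0.85) and Col4a1 (-0.84). All genes were read from the same arrays, and these values are a description.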

How the data were processed

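Livers of 220 female F1 mice were profiled singly on the Affymetrix HT MG-430 PM array. The authors deposited processed log2 signals for every probe set. GCOS and RMA appear in the submitters' processing notes without versions, and the sources used here state no batch correction. RMA subtracts background, brings all arrays to one distribution and combines the probes of a set, so a change shared by all genes is removed. A strain's sequence variant at a probe's target can change its signal.

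Of 45141 entries, 104 were controls. Of 45037 probe sets, 28898 had 1 symbol in the platform annotation, 551 had several and 15588 were unnamed here, which gave 17097 genes. RefSeq records (GRCm38.p6) changed 0 symbols. Groups were the maternal strains in the labels, and replicate numbers follow accession order. Tests used limma 3.58.1 in R 4.3.3 (moderated F-test across strains, and two-sided contrasts of strain means for AXB against BXA and of strains over all 220 mice), with Benjamini-Hochberg adjustment over all probe sets and a threshold of 0.05. The scripts were tested on simulated data. Arrays give no read depth, and precision is limited by how many there are.

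Genes were named by rule: members called between AXB and BXA or, with none, the 5 of lowest p; the 12 of highest share, the 8 of largest spread and the 4 of lowest share; isoforms and fixed core subunits; up to 6 called per panel or progenitor contrast; up to 2 per pathway list; and the 8 most similar genes outside the members. Genes of the most negative correlation, single marker genes, other probe sets and a few further members were named after their values were seen. Members and lists were chosen with earlier results of these data known. List genes without a single-symbol probe set, including the mitochondrially encoded ones, were not analysed here. Alternatives covered threshold, signal filter, prior, probe sets, scaling, RNA integrity and left-out mice or strains.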

Additional observations from a re-analysis of the deposited data

Results flagged for a closer look

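Values that stood apart were sought in groups of 4 to 10, with Dixon's gap over range at the 95% level, for each of the 74 genes in the 10 BXA strains and in the 4 mice of BXD20/TyJ, and for the median departure in BXA. Of 149 groups, 9 held a value that stood apart, and chance gives about 1 in 20. Of these, 6 were in BXA strains of 1 mouse each. In BXA1/PgnJ, Cox8c was high at 3.93 (others 3.44 to 3.61), Ndufa7 at 11.13 (others 10.83 to 10.96) and Ndufv2 at 11.22 (others 10.88 to 11.03), and Ndufa2 was low at 10.52 (others 10.84 to 11.12). In BXA25/PgnJ, Ndufb4 was high at 10.23 (others 9.74 to 9.99) and Uqcr10 low at 10.38 (others 10.56 to 10.73). In BXD20/TyJ, mouse 4 was high for Cox4i1 at 11.88 (others 11.80 to 11.81) and for Cox4i2 at 3.27 (others 2.79 to 2.80), and mouse 1 for Cox8b at 3.14 (others 2.82 to 2.87). Without BXA25/PgnJ the AXB minus BXA difference of Uqcr10 was 0.07.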

How the results depend on the processing

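The count of genes that differed across strains lay between 63 and 70 under threshold, filter, prior, probe set, scaling, RNA integrity and strain-size alternatives, and between 42 and 63 when a replicate of every strain was left out, which removes strains or mice. Likewise the BXD count fell from 43 to between 5 and 19, and the AXB and BXA count from 23 to between 2 and 5; the latter was 7 at an adjusted p under 0.01 and 14 with the RNA integrity covariate. The median share lay between 0.41 and 0.55. Between AXB and BXA 0 genes passed under every alternative run, and the median difference lay between 0.02 and 0.04, or 0.01 and 0.04 with single strains left out. The A/J count was 1 at an adjusted p under 0.01, 3 with 5 progenitor strains alone, and 1 to 7 without single mice. The DBA/2J count of 1 became 0 at an adjusted p under 0.01, with all probe sets averaged, with arrays centred on the median and with 5 progenitor strains alone, and was 0 to 1 without single mice. Other probe sets, tried after seeing the data, turned the sign of Ndufa12 in DBA/2J (0.12) and of Uqcr10 in AXB minus BXA (-0.053 and -0.13, and -0.029 with all probe sets averaged). Causes were not tested. No paired analysis was possible because replicate numbers only follow accession order.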
